A study of Cavia porcellus with 30 samples.

Results

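Of the 25824 guinea pig transcripts quantified in kidney RNA, 105 had a higher mean level than the vehicle animals of the same time after both doses of mercuric chloride and at both times. These members were chosen by their own measured values. For each of the 4 treated groups, L was taken as log2((treated mean TPM + 1)/(vehicle mean TPM + 1)), where TPM is an abundance scaled for transcript length and for the total of the library. A member had an L of at least 0.58 (a 1.49-fold ratio) in all 4 groups and a mean of at least 0.5 TPM over the 10 vehicle animals. The members were 0.598% of the 17560 transcripts that reached that vehicle mean, of which 142 others were lower by as much in all 4 groups.

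The study compared the kidneys of 30 male Hartley guinea pigs, an outbred breed, in 6 groups of 5. Each animal had 1 injection into the peritoneum, of 1 ml/kg saline (vehicle) or of mercuric chloride at 1.00 mg/kg (low dose) or 1.50 mg/kg (high dose), and the kidney was taken 9 or 33 h later. All animals, vehicle animals included, were young males bought some weeks after birth that carried a jugular vein catheter and had no food before sampling. Whole kidneys were powdered, so each library mixes all cell types of the organ, and fewer cells of a type and less RNA per cell cannot be told apart. Libraries held 23134713 to 36072327 estimated counts. Each animal is 1 library, and the last number of its label names it: 31, 32 and 58 to 60 (vehicle, 9 h), 33 to 37 (low dose, 9 h), 38 to 42 (high dose, 9 h), 43 to 47 (vehicle, 33 h), 48 to 52 (low dose, 33 h) and 53 to 57 (high dose, 33 h). Values of 5 animals are given in that order.

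Mercuric chloride is a nephrotoxicant that accumulates in the epithelial cells of the proximal tubule, where the mercuric ion binds thiol groups of proteins and of glutathione. Kidney cells are known to answer metal and electrophile stress by raising metal-binding proteins, enzymes of glutathione synthesis and conjugation, and heat shock proteins, and injured tubules also express repair and inflammation genes. The roles of the members were not assigned here. The deposited tables hold Ensembl transcript identifiers alone, and 0 of the 25824 identifiers occurred in the gene table used (37416 genes of assembly mCavPor4.1). The pathway lists and the markers of kidney cell types are lists of gene symbols and were therefore not applied. Members are therefore named by transcript. A readable supplementary list pairs 55 of the 105 members with a guinea pig Ensembl gene and a rat Entrez Gene identifier. Those rat identifiers are given where a member is first described, and they were not translated into gene symbols. The quantifier divides reads among similar sequences, so values of members with close paralogs or isoforms are uncertain.

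The L values that chose the members are a description. The median L of the 105 members was 1.03 for the low dose and 1.27 for the high dose at 9 h, and 0.89 for the low dose and 1.82 for the high dose at 33 h. Over all 17560 transcripts with a vehicle mean of at least 0.5 TPM, the medians were 0.08, 0.06, -0.03 and 0.03 in the same order. An L of at least 1 in all 4 groups was reached by 29 members. The low dose at 33 h gave the smallest of the 4 values for 55 members and the low dose at 9 h for 35, whereas the high dose at 33 h gave the largest for 70 members and the high dose at 9 h for 26. L was larger at the high than at the low dose for 84 members at 9 h and for 98 at 33 h.

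Just inside the threshold stood 3 members. ENSCPOT00000031197.1 had L values of 0.58, 0.78, 0.76 and 0.88, with vehicle animals at 9 h between 0 and 1.47 TPM. ENSCPOT00000007377.3 (rat Entrez Gene 294074; 0.58, 0.75, 0.59 and 1.14) and ENSCPOT00000040569.1 (0.77, 0.85, 0.59 and 0.69) were the next. The last of these lay near the threshold in its means but far from it in its spread: its vehicle animals were at 13.9 to 17.3 TPM at 9 h and 13.9 to 17.0 TPM at 33 h, and all 20 treated animals were above the vehicle animals of their time. Just outside were ENSCPOT00000012640.3, whose smallest L was 0.5797 (high dose, 33 h), ENSCPOT00000031783.1, at 0.5795 (high dose, 9 h), and ENSCPOT00000006448.3, at 0.5769 (low dose, 9 h).

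The members differed widely in level. Their vehicle mean ran from 0.505 to 4874 TPM, with a median of 6.56 TPM against 9.05 TPM over the 17560 transcripts. The share of members under 5 TPM was 42.9%, against 35.7% of the 17560, and the share at 100 TPM or more was 9.52%, against 5.85%. Members were shorter, with a median length of 1645 bases (189 to 9100) against 2409 bases. Precision was lowest for the scarce members: 18 had under 50 estimated counts per vehicle animal, and the lowest had a mean of 2.9. All 105 passed the filter on low counts. ENSCPOT00000011224.3 (rat Entrez Gene 24567) dominated the group in TPM and made up 39.6 to 66.4% of the members' summed TPM in every animal. It was also the shortest member, at 189 bases, and TPM is scaled for length, so this share is not one of molecules counted directly.

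Each dose was set against the vehicle animals of its time with edgeR's quasi-likelihood test on the estimated counts of all 19729 transcripts that passed the filter, at a Benjamini-Hochberg adjusted p of at most 0.1. The rule used these 4 contrasts, so the counts are given as a description and nothing is read from them. At 9 h, 79 members were called higher after the low dose (against 11.7% of all transcripts tested) and 92 after the high dose (against 16.9% of all). At 33 h, 15 members were called higher after the low dose (against 0.476% of all) and 103 after the high dose (against 25.1% of all). The count of 15 depended on single animals and on the method, as did the share of all transcripts. It was 84 without low-dose animal 49 (against 5.22% of all), 69 with DESeq2 (4.04%) and 59 with all 30 animals in 1 fit (3.82%). It was 8 or 9 without low-dose animal 48 or any of vehicle animals 43, 44, 46 and 47 (against 0.056 to 0.137% of all).

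Overlap of single animals was counted in the same way, as a description. All 5 treated animals were above all 5 vehicle animals for 55 members after the low dose at 9 h (against 8.5% of all transcripts tested) and for 58 after the high dose at 9 h (against 8.26%). At 33 h this held for 18 members after the low dose (against 0.816%) and for 100 after the high dose (against 18.3%). For the low dose at 33 h, 41 members had 3 animals and 18 had 2 animals above the vehicle range. Across the 4 comparisons, 16 members were free of overlap in all 4 (as were 34 of all transcripts tested, 0.172%), 28 in 3, 26 in 2, 31 in 1 and 4 in none.

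**Figure D1:**
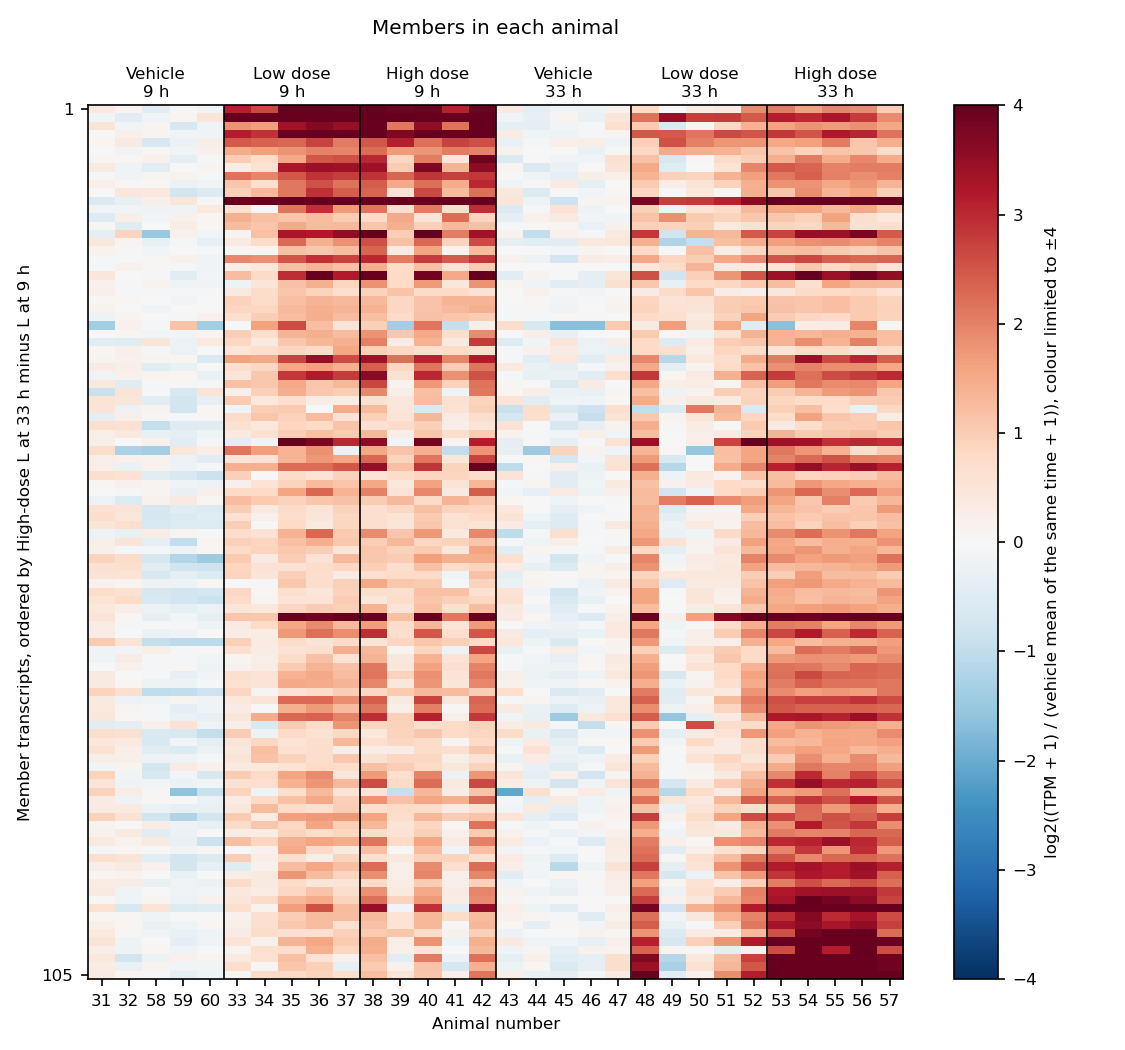
Each row is 1 of the 105 members and each column 1 of the 30 animals; colour gives log2((TPM + 1)/(vehicle mean of the same time + 1)), limited to ±4. Rows run from members whose L at the high dose was larger at 9 h (top) to those whose L was larger at 33 h (bottom). Low-dose animal 49 at 33 h is pale or blue in most rows, whereas the 5 high-dose animals at 33 h are red in nearly all.

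Animals of a treated group were unequal. The median over the members of the animal's own L (log2((TPM + 1)/(vehicle mean + 1))) was 0.68, 0.67, 1.21, 1.34 and 1.18 in the low-dose animals at 9 h, and 1.50, 0.76, 1.40, 0.62 and 1.70 in the high-dose animals. Animals 33 and 34 of the low dose and 39 and 41 of the high dose were thus the low ones at 9 h. At 33 h the low-dose animals were at 1.52, -0.07, 0.40, 0.83 and 1.41, and the high-dose animals at 1.76, 1.93, 1.85, 1.92 and 1.70. Animal 49 lay within the range of the vehicle animals of its time (-0.23 to 0.17), and the high-dose animals at 33 h lay close together, at or above the highest animals of the other groups. The vehicle animals at 9 h were at 0.25, 0.09, -0.08, -0.21 and -0.13, with animals 31 and 32 above the 3 numbered 58 to 60.

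**Figure D2:**
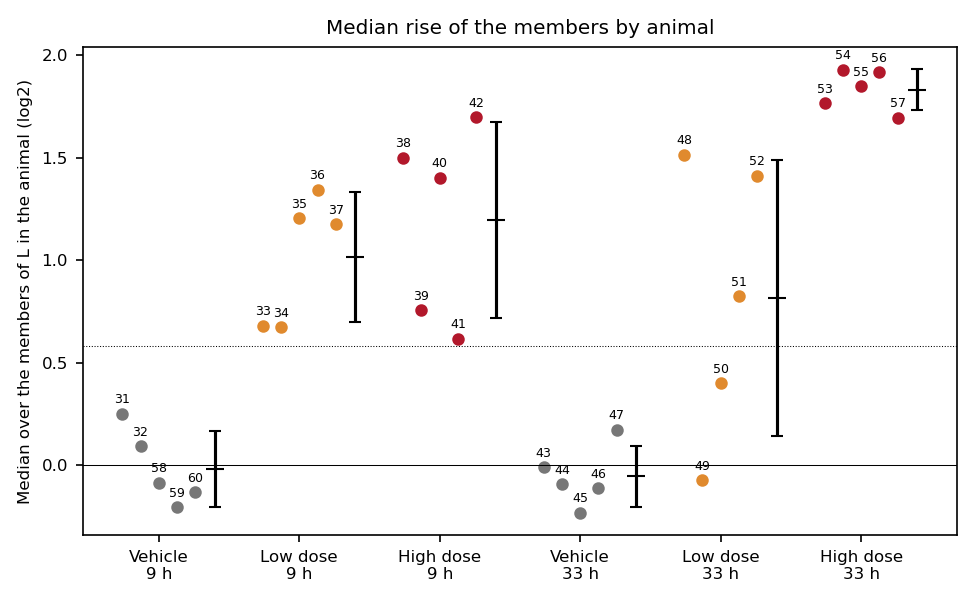
Points are the 30 animals, labelled by number, with the median over the 105 members of L in that animal (log2) on the vertical axis; the black dash and bar are the mean and SD of the 5 animals, and the dotted line marks 0.58. The 5 low-dose animals at 33 h run from -0.07 (animal 49) to 1.52 (animal 48), and the 5 high-dose animals at 33 h from 1.70 to 1.93.

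Counted by member, animal 49 was above the range of the vehicle animals of its time for 21 of the 105 members, animal 50 for 49, animal 51 for 83, animal 52 for 102 and animal 48 for 103. The low animals at 9 h were above that range for 75 (animal 33), 72 (animal 34), 76 (animal 39) and 72 members (animal 41), and the other 6 treated animals at 9 h for 92 to 104. The high-dose animals at 33 h were above it for 103 or 104 members each. The rule used these same animals, so the counts are a description, and they have no share over all transcripts beside them. Within the low dose at 9 h, animals 33 and 34 were also the shallowest libraries (26158761 and 23241260 estimated counts, against 26282073 to 28844458). Within the high dose at 9 h, animals 39 and 41 (25560645 and 25424037) were shallower than animals 38 and 40 (33446127 and 32777523) and deeper than animal 42 (23134713). Within the low dose at 33 h, animals 49 and 50 (28450388 and 28861404) were not the shallowest (25222566 in animal 51). The part of depth in these differences was not tested. The median coefficient of variation of a member over the 5 animals was 59.2% after the low dose at 33 h and 16.4% after the high dose at 33 h. Over all 17560 transcripts it was 14.3% and 10.9%. In the vehicle animals it was 26.1% at 9 h and 28.3% at 33 h for the members, against 14.0% and 11.3% over all. For the treated groups at 9 h it was 33.7% (low dose) and 39.7% (high dose), against 14.3% and 15.5%.

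The 16 members without overlap in any comparison differed from the rest in their levels in single animals. They were chosen here by their separation, so the values that follow describe them. Their median L was 1.25 and 1.44 (low and high dose, 9 h) and 1.28 and 1.27 (low and high dose, 33 h). In the other 89 members it was 0.91, 1.23, 0.87 and 1.84. In animal 49 the median L was 0.93 over the 16 and -0.19 over the other 89. Of the 16 members with an L of at least 0.58 in animal 49, 13 belonged to the group without overlap. Animal 49 was the lowest of the 5 low-dose animals at 33 h for 77 of the other 89 members but for 4 of these 16, for another 4 of which it was the highest. They were also more abundant, with a median vehicle mean of 38.7 TPM against 5.30 TPM.

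The most abundant of them, ENSCPOT00000011224.3, had TPM values of 4968, 4773, 5699, 5834 and 5043 in the vehicle animals at 9 h. It stood at 23815, 20464, 29634, 38703 and 36152 TPM after the low dose and at 39406, 26412, 38132, 35285 and 37046 TPM after the high dose. At 33 h the vehicle animals were at 4561, 4002, 3389, 5314 and 5153 TPM, the low-dose animals at 11609, 8721, 8367, 11689 and 13984 TPM and the high-dose animals at 19189, 23618, 18193, 16442 and 18208 TPM. No treated animal came near the vehicle range, and at 33 h every high-dose animal was above every low-dose animal. L was 2.50, 2.74, 1.28 and 2.09. ENSCPOT00000047050.1 followed it at a lower level, with group means of 530.3 ± 47.3, 2891 ± 932 and 3385 ± 804 TPM at 9 h (vehicle, low and high dose, SD, n = 5) and of 436 ± 119.6, 1171 ± 336 and 2386 ± 259.8 TPM at 33 h.

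At 9 h the largest L values of all 105 members belonged to ENSCPOT00000044307.1 (rat Entrez Gene 100362623 and 689415) and ENSCPOT00000040875.1. ENSCPOT00000044307.1 was at 144, 175, 249.6, 300.1 and 209 TPM in the vehicle animals at 9 h, and at 3806 to 7775 TPM after the low dose and 5473 to 8210.3 TPM after the high dose. At 33 h its values were 70.0 to 174 TPM in the vehicle animals, 1730.1, 857, 904, 1076 and 1547 TPM after the low dose and 3088, 3270.4, 2326, 2344 and 2890.2 TPM after the high dose. The order of the groups was the same as for the most abundant member, with the doses apart at 33 h. ENSCPOT00000040875.1 behaved otherwise: from 13.8, 10.8, 13.3, 15.7 and 21.1 TPM in the vehicle animals it was at 389, 439, 435, 558 and 452 TPM after the low dose and at 433, 497, 321, 564 and 425 TPM after the high dose at 9 h. At 33 h its values were 13.9, 12.1, 17.0, 12.7 and 21.9 TPM, 73.6, 185, 112, 114 and 89.0 TPM and 144, 130.0, 158, 114 and 60.2 TPM, in the same order of groups. Its 2 doses overlapped at both times, and animal 49, low for most members, had the highest value of all 10 treated animals at 33 h.

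Other patterns occurred within these 16. ENSCPOT00000001022.3 (rat Entrez Gene 114846) had means of 34.7 ± 4.07, 480.0 ± 179 and 617 ± 123 TPM at 9 h and 34.1 ± 5.23, 191 ± 23.8 and 242 ± 66.4 TPM at 33 h (vehicle, low and high dose, SD, n = 5), so that its largest levels were at 9 h. ENSCPOT00000025069.2 (rat Entrez Gene 24426) was at 708, 1136, 1097, 1039 and 849 TPM after the low dose at 33 h and at 883, 743, 876, 836 and 666 TPM after the high dose, against 331 to 439 TPM in the vehicle animals. ENSCPOT00000014279.3 (rat Entrez Gene 100363379 and 117254) and ENSCPOT00000035406.1 had like L values at both doses and times, of 1.18, 1.23, 0.83 and 1.09 and of 1.12, 1.21, 0.82 and 1.08. The vehicle animals of ENSCPOT00000035406.1 were at 236 to 268 TPM at 9 h and 240.3 to 277 TPM at 33 h, and its treated animals at 421 to 647 (low dose, 9 h), 447 to 652 (high dose, 9 h), 367 to 526 (low dose, 33 h) and 475 to 596 TPM (high dose, 33 h).

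Within these 16, ENSCPOT00000031135.1 was the 1 member whose high-dose effect was called larger at 33 h. It was at 2.10, 1.70, 1.83, 1.90 and 1.86 TPM in the vehicle animals at 33 h, 18.6, 2.27, 2.96, 6.19 and 10.1 TPM after the low dose and 27.1, 49.1, 39.5, 33.7 and 17.9 TPM after the high dose. Animal 49, its lowest treated animal at 33 h, stayed above the vehicle range. ENSCPOT00000022924.2 was instead highest at 9 h, at 96.4, 91.0, 87.6, 115 and 75.0 TPM after the low dose and 99.2, 154, 81.3, 114 and 106 TPM after the high dose, against 10.4 to 21.8 TPM in the vehicle animals. At 33 h it stood at 29.0 to 88.3 and 31.4 to 64.2 TPM (low and high dose), against 11.7 to 17.3 TPM. The members without overlap that are not described elsewhere were ENSCPOT00000011509.3, ENSCPOT00000013425.3 (rat Entrez Gene 140668), ENSCPOT00000035286.1 (rat Entrez Gene 293820) and ENSCPOT00000046901.1, with L values between 0.71 and 1.32.

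Other members split the treated animals into high and low ones within a dose. ENSCPOT00000023105.2 was at 10.2, 8.31, 9.73, 5.97 and 8.09 TPM in the vehicle animals at 9 h. It was at 6.07, 7.56, 160.5, 127 and 76.2 TPM after the low dose and at 112, 7.76, 133, 9.30 and 82.0 TPM after the high dose. Animals 33, 34, 39 and 41 thus lay within the vehicle range, and the other 6 lay far above it, at 76.2 TPM or more. At 33 h the vehicle animals were at 5.37, 7.06, 5.64, 6.91 and 11.4 TPM, the low-dose animals at 88.0, 7.24, 8.67, 52.7 and 135 TPM and the high-dose animals at 85.2, 84.1, 61.3, 66.3 and 62.1 TPM. Animals 49 and 50 were within the vehicle range and the other 8 treated animals were not.

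The same animals were the low ones for ENSCPOT00000001279.3 (rat Entrez Gene 29545) and, at 9 h, for ENSCPOT00000008335.3. ENSCPOT00000001279.3 was at 3.52, 2.36, 1.55, 1.97 and 1.48 TPM in the vehicle animals, 5.79, 5.76, 52.2, 45.7 and 56.2 TPM after the low dose and 67.7, 6.38, 52.9, 12.8 and 68.5 TPM after the high dose at 9 h. At 33 h its values were 1.47 to 3.58 TPM in the vehicle animals, 58.6, 3.17, 10.3, 45.8 and 58.9 TPM after the low dose and 85.9, 53.2, 65.6, 76.9 and 71.9 TPM after the high dose. All treated animals but animal 49 were above the vehicle range, and the 5 low ones among them were at 5.76 to 12.8 TPM. ENSCPOT00000008335.3 had 90.8, 6.35, 31.9, 30.5 and 69.0 TPM after the low dose at 33 h, where animal 49 again lay within the vehicle range of 5.51 to 15.7 TPM. Over the 105 members, 74 were above the vehicle range in all 14 treated animals other than animals 33, 34, 39, 41, 49 and 50, and 4 were within or below it in each of these 6. Both held for ENSCPOT00000023105.2 and ENSCPOT00000002413.3, which was at 13.7, 2.48, 3.83, 6.26 and 14.0 TPM after the low dose at 33 h and 21.8, 19.7, 19.7, 19.6 and 19.0 TPM after the high dose, against 1.81 to 4.43 TPM in the vehicle animals. These 6 animals were set together after their values were seen and were not tested as a group. The counts of 74 and 4 have no share over all transcripts beside them. The rule required a raised mean in each treated group, so these counts are a description only.

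**Figure D3:**
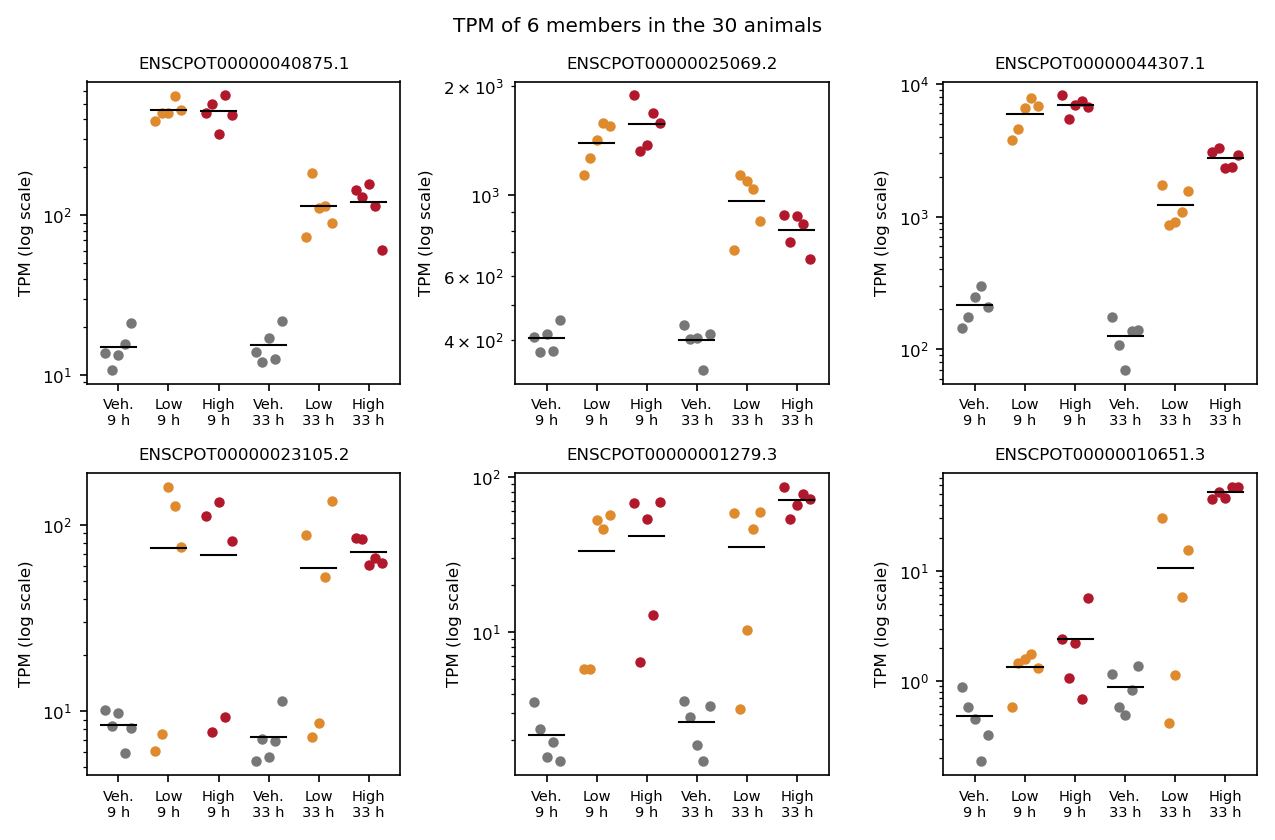
TPM (log scale) of 6 members in the 30 animals, 5 to a group, with the group mean as a line; ENSCPOT00000040875.1, ENSCPOT00000025069.2 and ENSCPOT00000044307.1 are among the 16 members without overlap, ENSCPOT00000023105.2 and ENSCPOT00000001279.3 split the treated animals, and ENSCPOT00000010651.3 was highest at 33 h. In the split members 2 animals of the low and 2 of the high dose at 9 h, and 2 of the low dose at 33 h, sit far below the others of their group.

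The doses were then compared directly, a contrast the rule did not use, although it used the same animals. At 9 h, edgeR called 0 of the 105 members different between high and low dose, and 0 of all 19729 transcripts (0% of those tested). At an unadjusted p of at most 0.05, 4 members and 638 of all transcripts passed, and DESeq2 and limma-trend also called 0 members. The log2 difference was above 0 for 89 members (84.8%, against 49.4% of all transcripts). Its median was 0.25 against 0.00 over all transcripts, and over the members it ran from -0.78 to 1.21. With animals 33, 34, 39 and 41 among the 10, the groups overlapped: ENSCPOT00000008570.3, the next most abundant member, was at 867, 806, 1156, 1448 and 1052 TPM after the low dose and 2314, 828, 1870.5, 819 and 2528 TPM after the high dose. Its difference was 0.68 ± 0.34 (log2, SE; edgeR adjusted p = 0.993).

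At 33 h, 57 of the 105 members (54.3%) were called higher after the high than after the low dose and 0 lower. Of all 19729 transcripts tested, 2707 (13.7%) were called higher and 2950 lower. The median log2 difference was 0.90 over the members and -0.01 over all transcripts, and 96 members were above 0 (91.4%, against 49.2% of all). The rule required a rise at the high dose, so raised transcripts are the closer reference. Of the 1956 transcripts called higher after the high dose than in vehicle animals at 33 h by at least 0.58, 57.8% were also called higher after the high than after the low dose, with a median difference of 0.60. The share among the members was thus near that of other raised transcripts. Leaving out 1 animal at a time gave 41 to 70 called members, and up to 2 of the members were called lower with DESeq2, with all 30 animals in 1 fit or without 1 animal. Of the 16 members without overlap, 4 were called, among them ENSCPOT00000011224.3 (0.77 ± 0.15, log2, SE; edgeR adjusted p = 0.00946) and ENSCPOT00000044307.1 (1.12 ± 0.21; edgeR adjusted p = 0.00870).

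The largest of these differences were in members that were scarce in vehicle animals. ENSCPOT00000014017.3 was at 0.645, 0.934, 0.417, 1.05 and 0.982 TPM in the vehicle animals at 33 h, 8.20, 0.944, 0.863, 0.399 and 1.01 TPM after the low dose and 10.002, 54.3, 14.9, 33.0 and 9.973 TPM after the high dose. Among the low-dose animals, animal 48 alone was above the vehicle range, and every high-dose animal was above animal 48. The difference between doses was 3.31 ± 0.83 (log2, SE, edgeR adjusted p = 0.0214). Over 16 alternatives it ran from 2.79 to 4.80, with the largest value without animal 48. ENSCPOT00000005276.3 was at 4.83, 0.153, 1.10, 1.04 and 3.07 TPM after the low dose and 8.97, 22.9, 25.4, 38.4 and 6.89 TPM after the high dose, a difference of 3.22 ± 0.71 without overlap (edgeR adjusted p = 0.0138). ENSCPOT00000010651.3 (rat Entrez Gene 499991) was at 29.97, 0.419, 1.14, 5.85 and 15.5 TPM after the low dose and 44.8, 51.9, 45.4, 58.0 and 57.2 TPM after the high dose. The groups did not overlap, but its difference of 2.21 ± 0.84 lay near the threshold (edgeR adjusted p = 0.0904), and the call was lost under 10 of 16 alternatives, over which the adjusted p was 0.0126 to 0.170.

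At the other end of the level scale, ENSCPOT00000008570.3 was at 723, 594, 539, 639 and 790.0 TPM in the vehicle animals at 33 h, 3174, 560.4, 1052, 1330.3 and 2685 TPM after the low dose and 6111, 6709, 7118, 7016 and 4667 TPM after the high dose. Animal 49 was below the mean of the vehicle animals, animals 48 and 52 were the highest of the low dose, and all 5 high-dose animals were above them. The dose difference was 1.77 ± 0.40 (log2, SE; edgeR adjusted p = 0.0152). Members not called included ENSCPOT00000040875.1, at -0.01 ± 0.29 (edgeR adjusted p = 0.990), ENSCPOT00000025069.2, at -0.35 ± 0.14 (0.108), and ENSCPOT00000023105.2, at 0.24 ± 0.67 (0.842). The low-dose animals of ENSCPOT00000023105.2 ran from 7.24 to 135 TPM.

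**Figure D4:**
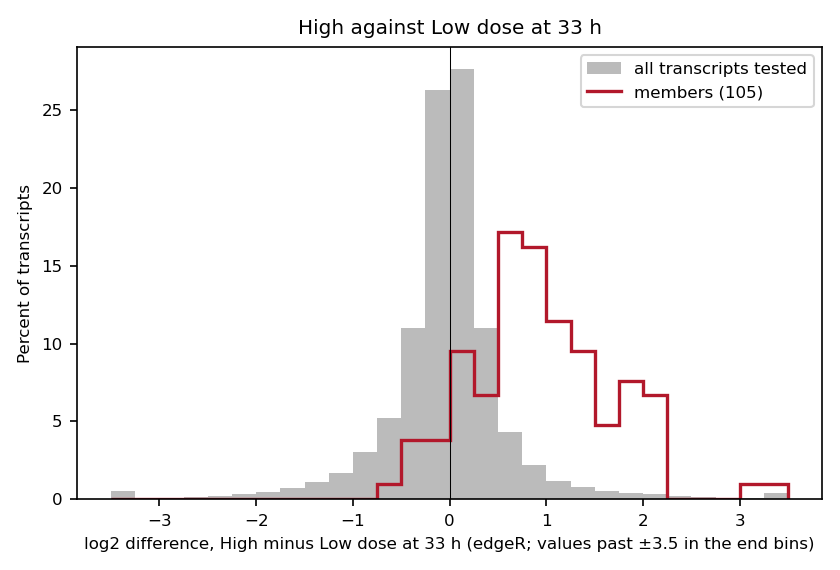
Distribution of the log2 difference between high and low dose at 33 h (edgeR), in percent of transcripts per bin, for all 19729 transcripts tested (grey) and the 105 members (red outline). The members are shifted to the right, with a median of 0.90 against -0.01; the rule required a rise at the high dose.

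The effect of a dose at 33 h was compared with its effect at 9 h in a contrast over 4 groups (treated minus vehicle at 33 h, minus treated minus vehicle at 9 h, 20 animals). The rule set a floor under each effect and did not use their difference. For the high dose, edgeR called the effect larger at 33 h for 24 members (10.2% of all transcripts tested were called in that direction) and smaller for 7 (against 10.3% of all). The share of members called larger was 22.9% and of members called smaller 6.67%. Of the 582 transcripts called higher than vehicle by at least 0.58 after the high dose at both times, 12.5% were called larger at 33 h and 4.12% smaller. The median L of the 24 was 0.82 and 1.02 at 9 h and 1.43 and 3.10 at 33 h (low and high dose). The median L of the 7 was 3.02 and 3.48 at 9 h and 1.28 and 1.75 at 33 h. The other 74 members were not called in either direction.

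Of the members with a larger effect at 33 h, ENSCPOT00000000075.3 was at 10.4, 5.29, 11.4, 2.45 and 13.9 TPM after the high dose at 9 h and 106, 126, 118, 119 and 86.1 TPM at 33 h, with vehicle animals at 3.64 to 5.79 and 2.95 to 8.60 TPM. At 9 h animals 39 and 41 were not above the vehicle range, and at 33 h all 5 animals were far above it. The difference of effects was 3.60 ± 0.48 (log2, SE; edgeR adjusted p = 9.95e-05). ENSCPOT00000010651.3 went from 2.39, 1.07, 2.24, 0.697 and 5.63 TPM at 9 h to the values given above at 33 h, with vehicle animals at 0.188 to 0.887 and 0.493 to 1.38 TPM and a difference of 3.61 ± 0.64 (edgeR adjusted p = 9.85e-04). ENSCPOT00000014017.3 had a difference of 3.36 ± 0.75 (edgeR adjusted p = 0.00522) and ENSCPOT00000008570.3 of 1.93 ± 0.36 (edgeR adjusted p = 0.00132).

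The 7 members with a smaller effect at 33 h were ENSCPOT00000001022.3, ENSCPOT00000011224.3, ENSCPOT00000020078.2, ENSCPOT00000022924.2, ENSCPOT00000025069.2, ENSCPOT00000034068.1 and ENSCPOT00000040875.1, of which 5 belonged to the 16 without overlap. ENSCPOT00000020078.2 was at 251, 182, 616, 599.6 and 448 TPM after the low dose at 9 h and 575, 433, 439, 246 and 444 TPM after the high dose, against 20.9 to 37.6 TPM in the vehicle animals. At 33 h its values were 50.4, 28.0, 34.7, 36.7 and 107 TPM and 119, 89.8, 113, 107 and 57.5 TPM, against 22.0 to 37.3 TPM. All treated animals at 9 h were far above the vehicle range, and at 33 h low-dose animals 49 to 51 were within it. The high-dose effect differed by -2.08 ± 0.30 (log2, SE; edgeR adjusted p = 1.73e-04). ENSCPOT00000040875.1 differed by -1.91 ± 0.34 (edgeR adjusted p = 9.49e-04), ENSCPOT00000001022.3 by -1.30 ± 0.24 (edgeR adjusted p = 0.00125) and ENSCPOT00000025069.2 by -0.92 ± 0.16 (edgeR adjusted p = 6.98e-04).

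**Figure D5:**
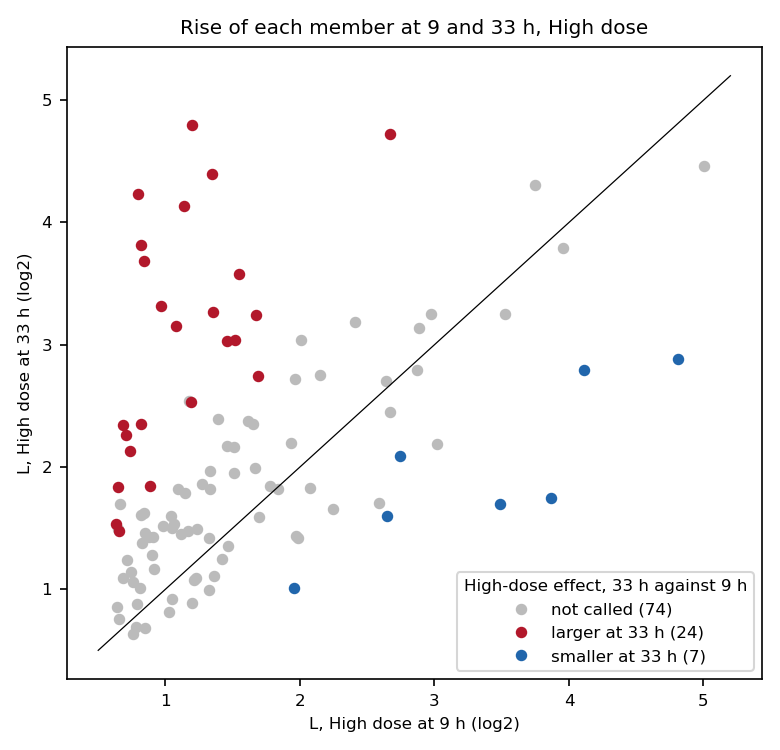
Each point is 1 member, with its L for the high dose at 9 h on the horizontal and at 33 h on the vertical axis (log2); the line marks equal values. The 24 members whose effect was called larger at 33 h (red) lie above the line, the 7 called smaller (blue) below it, and the 74 not called (grey) on both sides of it.

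For the low dose, 1 member had a larger effect at 33 h (0.952% of the members, 2.83% of all transcripts tested) and 6 a smaller one (5.71% of the members, 2.39% of all). The 6 were ENSCPOT00000001022.3, ENSCPOT00000011224.3, ENSCPOT00000020078.2, ENSCPOT00000034068.1, ENSCPOT00000040875.1 and ENSCPOT00000044307.1. The contrasts of the 2 doses share the vehicle animals. ENSCPOT00000020078.2 differed by -2.87 ± 0.50 (log2, SE; edgeR adjusted p = 0.00993), ENSCPOT00000040875.1 by -1.90 ± 0.33 (0.00993) and ENSCPOT00000011224.3 by -1.17 ± 0.26 (0.0330). The member with a larger effect was ENSCPOT00000026835.2 (rat Entrez Gene 192227), at 134, 118, 109, 124 and 128 TPM after the low dose at 9 h and 126, 225, 278, 203 and 171 TPM at 33 h, against vehicle animals at 38.3 to 72.4 and 47.7 to 56.8 TPM. At 33 h animal 50 was its highest low-dose animal and animal 48 its lowest. Its difference of 0.96 ± 0.28 (edgeR adjusted p = 0.0790) was not called under 16 of 26 alternatives, over which the adjusted p was 0.0205 to 0.140.

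The vehicle animals themselves were compared between times, since both served as reference. edgeR called 0 members and 0 of all transcripts (0% of those tested), although 23 members (21.9%) and 11.7% of all transcripts had an unadjusted p of at most 0.05. DESeq2 called 10 members and 582 of the 19729 transcripts, and limma-trend 1 member and 8 transcripts. The log2 difference, 33 h minus 9 h, was above 0 for 78 members (74.3%, against 50.8% of all transcripts). Its median was 0.22 over the members and 0.003 over all transcripts. ENSCPOT00000034068.1 was at 29.1, 18.6, 21.9, 12.7 and 18.2 TPM at 9 h and 37.0, 37.2, 44.8, 46.8 and 78.3 TPM at 33 h, without overlap, a difference of 1.16 ± 0.24 (log2, SE; edgeR adjusted p = 0.198). After the high dose it was at 325, 90.1, 248, 94.3 and 418 TPM at 9 h and 151, 172, 161, 176 and 144 TPM at 33 h, so its smaller effect at 33 h (difference of -1.80 ± 0.49; edgeR adjusted p = 0.0176) came with a higher vehicle level. ENSCPOT00000044307.1 went the other way in the vehicle animals, at -0.94 ± 0.27 (edgeR adjusted p = 0.260).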

How the data were processed

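Poly-A RNA of 30 frozen, powdered kidneys was sequenced by the authors as 75-bp read pairs, and kallisto 0.42.4 (per the submitters' processing notes) matched the reads to the Ensembl guinea pig transcripts, whose release is not given in the sources used here. The authors deposited 1 table per animal. The estimated counts they deposited are raw and can be fractional. The deposited TPM values were scaled by the authors' quantifier for effective length and library total.

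The members and the lists were chosen with earlier results of these data known. L used a pseudocount of 1 TPM, a threshold of 0.58 and a vehicle minimum of 0.5 TPM. For tests, estimated counts were rounded to whole numbers, transcripts were filtered with filterByExpr over all 30 animals and 6 groups (19729 kept), scaled by TMM and fitted with edgeR 4.0.16 in R 4.3.3 (glmQLFit, glmQLFTest), with the compared groups in each fit. Calls were made at a Benjamini-Hochberg adjusted p of at most 0.1 over all transcripts tested. The test named in the study's methods (Sleuth) was not run. Each animal is a replicate. The p-values set a difference between groups against the spread between animals within the groups of a fit. The fits were tested on simulated counts.

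Named transcripts were the 6 members with the largest smallest L, the 6 with the highest vehicle mean, up to 3 called members with the largest positive and negative difference in each contrast outside the rule, and the 3 transcripts just inside and just outside the threshold. The other members without overlap in any comparison and ENSCPOT00000002413.3 were named after their values were seen. Rat identifiers come from the readable part of a supplementary list. Alternatives were other pseudocounts, thresholds, scalings and references for the rule, RLE normalization, DESeq2 1.42.0 (Wald test), limma-trend (limma 3.58.1, prior count 0.5), a weaker filter, all 30 animals in 1 fit, an adjusted p of 0.05 and leaving out each animal. Totals of 23134713 to 36072327 estimated counts per animal (median 27824746.5) set the precision. Gene lists, markers and sequences were not analysed here.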

Additional observations from a re-analysis of the deposited data

Results flagged for a closer look

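Among 126 sets of 5 animals checked (21 measures in 6 groups), 5 had an animal far from the others, and chance gives about 1 in 20, or 6.3. Animal 47 was the highest vehicle animal at 33 h for ENSCPOT00000023105.2 (11.4 TPM, next 7.06 TPM) and for ENSCPOT00000034068.1 (78.3 TPM, next 46.8 TPM). Animal 31 was the highest vehicle animal at 9 h for ENSCPOT00000008570.3 (829 TPM, next 642 TPM). After the low dose at 33 h, animal 48 stood out for ENSCPOT00000014017.3 (8.20 TPM, next 1.01 TPM) and animal 52 for ENSCPOT00000020078.2 (107 TPM, next 50.4 TPM).

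The effect of a dose differed between 9 and 33 h, by a contrast over 4 groups in edgeR, for 7 members at the low dose (1030 of all 19729 transcripts tested) and for 31 members at the high dose (4043 of all).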

How the results depend on the processing

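The number of members (105) rested on the rule's settings: 218 with a pseudocount of 0.1, 29 with a threshold of 1, 60 with a minimum of 5 TPM and 182 with only animals 58 to 60 as vehicle at 9 h (83 with only animals 31 and 32). Omitting 1 animal at a time gave 76 (without animal 48) to 146 members (without animal 31), and 48 members were chosen in all 30 cases. For the low dose at 33 h against vehicle, 15 members were called higher, 9 at an adjusted p of 0.05, 69 with DESeq2 and 59 with all 30 animals in 1 fit, and 8 to 84 when animals were left out (84 without animal 49; 8 without animal 43, 44 or 47; 9 without animal 46 or 48). In that contrast the share of all transcripts called higher was 0.476%, 0.071%, 4.04% and 3.82% in the same order, and 0.056 to 5.22% without 1 animal. For vehicle at 33 h against 9 h, DESeq2 called 10 members, limma-trend 1 and the fits without 1 animal 0 to 2 (2 without animal 32), against 0. The low-dose effect between times was called for 7 members, 4 at an adjusted p of 0.05 and 4 to 9 without 1 animal (4 without animal 36). The ranges without 1 animal were 41 to 70 for high against low dose at 33 h (57), 0 to 0 at 9 h (0), 28 to 39 for the high-dose effect between times (31), 70 to 83 and 77 to 93 for low and high dose at 9 h (79 and 92) and 102 to 103 for the high dose at 33 h (103). The causes were not tested. Of the named transcripts, ENSCPOT00000034068.1 lost its call for the low-dose effect under 2 of 26 alternatives (adjusted p of 0.05; without animal 36). The transcripts named for the largest called differences between doses or in the effects between times kept their sign under the alternatives run. For high against low dose at 33 h, 2 members were called lower with DESeq2, with all 30 animals in 1 fit and without animal 48, and 1 without animal 52, 53 or 55, against 0. Against vehicle, 104 of 105 members were above 0 for the high dose at 9 h without animal 40 and at 33 h without animal 56. No paired analysis was possible because the animal numbers are not shared between groups. Depth limits the members with few counts.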
